A study of Mus musculus with 9 samples.

Results

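Fabp4 (adipocyte fatty acid binding protein) and genes that act with it in fatty acid handling were followed in a parental mouse colon carcinoma line and in 2 liver metastatic derivatives of it. The set holds 8 genes named by symbol: Fabp3, Fabp4, Fabp5, Pparg, Plin2, Lpl, Cd36 and Cpt1a. The set was selected on Fabp4's rise over MC38-P in both derivatives, and the other genes were added for their role beside it, so the values of these genes in the derivatives against MC38-P are given as a description without a test. Of the 16399 genes in the deposited files 7 are members, and Lpl was not analysed here. Of those 7, 5 reached the limit for testing, which was at least 1 TPM in at least 3 libraries (11287 genes in all), and Fabp3 and Cd36 did not.

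MC38 is a colon carcinoma line from C57BL/6 mice, and all cells here carry GFP and firefly luciferase. MC38-P is the parental population. MC38-LM3a and MC38-LM3b are 2 separately derived populations obtained after 3 rounds in which cells were injected into the spleen of immunocompetent mice, recovered from liver metastases and grown again in culture. Each group is thus 1 cell population, and its 3 libraries are replicates of that population, with no separate animals behind them. Poly(A) RNA of cultured cells in standard serum medium was sequenced with no further treatment, and expression is given in TPM (transcript abundance scaled for gene length and to the same total in each library). Since TPM are per length, the levels of different genes can be set side by side.

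Long-chain fatty acids enter cells with the help of surface proteins such as Cd36 and the fatty acid transport proteins, after lipoprotein lipase (Lpl) or other lipases have freed them from circulating triglyceride. Inside the cell they are carried by fatty acid binding proteins (FABPs), small cytosolic proteins that hold a fatty acid in a barrel-shaped pocket, and are activated to acyl-CoA. They are then stored in lipid droplets, whose coat includes Plin2, or enter mitochondria through the carnitine palmitoyltransferase Cpt1a for beta-oxidation. Pparg is a nuclear receptor that binds fatty acids and drives adipocyte genes, and Fabp4 is among its best known targets. Fabp4 is known from adipocytes, macrophages and capillary endothelium, Fabp5 from epidermis and many epithelia, and Fabp3 from heart and muscle.

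Because the main change among these genes lies between 2 genes of the same family, a stretch of each coding sequence is shown first. Fabp4 and Fabp5 lie 3 genes apart on mouse chromosome 3, on opposite strands, whereas Fabp3 lies on chromosome 4 (RefSeq gene order of GRCm38.p6). In the GENCODE M21 transcripts the encoded proteins have 132 residues (Fabp4), 135 (Fabp5) and 133 (Fabp3), each from 4 exons. Fabp4 and Fabp5 share 68 of 132 aligned residues (51.5%), fewer than the 85 of 132 (64.4%) that Fabp4 shares with Fabp3. The 90-base window in which the Fabp4 and Fabp5 coding sequences are most alike is printed here 5′ to 3′ on the coding strand, from base 267 to 356 of the Fabp4 coding sequence and from base 273 to 362 of that of Fabp5. Capitals mark the 26 bases that differ.
Fabp4: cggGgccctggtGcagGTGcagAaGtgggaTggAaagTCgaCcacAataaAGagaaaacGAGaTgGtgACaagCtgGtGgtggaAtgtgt
Fabp5: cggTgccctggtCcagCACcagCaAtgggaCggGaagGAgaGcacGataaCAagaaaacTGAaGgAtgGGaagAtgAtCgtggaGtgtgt
Even in this window 64 of 90 bases are identical (71.1%), and the longest run that the full transcripts of both genes have in common is 12 bases. Fabp4 shared no run of 50 bases with any other gene of that annotation. Fabp5 shared such runs with 5 Fabp5-like or predicted genes, none of them listed in the files, so its level is less certain than that of Fabp4, and reads of these copies may be included in it or lost from it.

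Fabp4 was low in MC38-P and abundant in both derivatives. In MC38-P the 3 libraries held 4.64, 7.76 and 6.71 TPM. In MC38-LM3a they held 182, 193 and 159 TPM, and in MC38-LM3b 190, 187 and 198 TPM. Every derivative library lay far above every MC38-P library, and the derivatives overlapped each other. The mean rose from 6.37 ± 1.59 TPM (SD, n = 3) to 178 ± 17.5 TPM in MC38-LM3a, a ratio of 27.9, and to 192 ± 5.57 TPM in MC38-LM3b, a ratio of 30.1. On the log2(TPM + 1) scale, which understates changes of low values, the differences were 4.62 and 4.73 with an SE of 0.14. In rank among the 16399 listed genes, Fabp4 stood between 8559 and 9564 in MC38-P and between 786 and 1050 in the derivatives.

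Fabp5, the epidermal FABP, moved the other way. It held 105, 119 and 130 TPM in MC38-P, 35.6, 39.4 and 37.5 TPM in MC38-LM3a and 36.8, 34.5 and 35.7 TPM in MC38-LM3b. No derivative library reached the level of the parental cells. The mean of 118 ± 12.6 TPM was 3.15-fold that of MC38-LM3a (37.5 ± 1.92 TPM) and 3.31-fold that of MC38-LM3b (35.7 ± 1.15 TPM), with log2 differences of -1.63 and -1.69 (SE 0.087). Fabp3, the heart FABP, was listed at 0 in 8 of the 9 libraries and at 0.30 TPM in MC38-LM3b replicate 3.

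Summed over Fabp3, Fabp4 and Fabp5, these FABP transcripts rose from 125 ± 13.7 TPM in MC38-P to 215 ± 18.2 TPM in MC38-LM3a and to 228 ± 6.14 TPM in MC38-LM3b. Their make-up was inverted: Fabp4 gave 5.08% ± 0.960 of the sum in MC38-P, but 82.5% ± 1.44 of it in MC38-LM3a and 84.3% ± 0.438 of it in MC38-LM3b (SD, n = 3). Per library, Fabp5 was 15.3 to 22.7 times as abundant as Fabp4 in the parental cells, and Fabp4 was 4.24 to 5.55 times as abundant as Fabp5 in the derivatives. The transcript sum says nothing of protein, which was not analysed here.

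**Figure D1:**
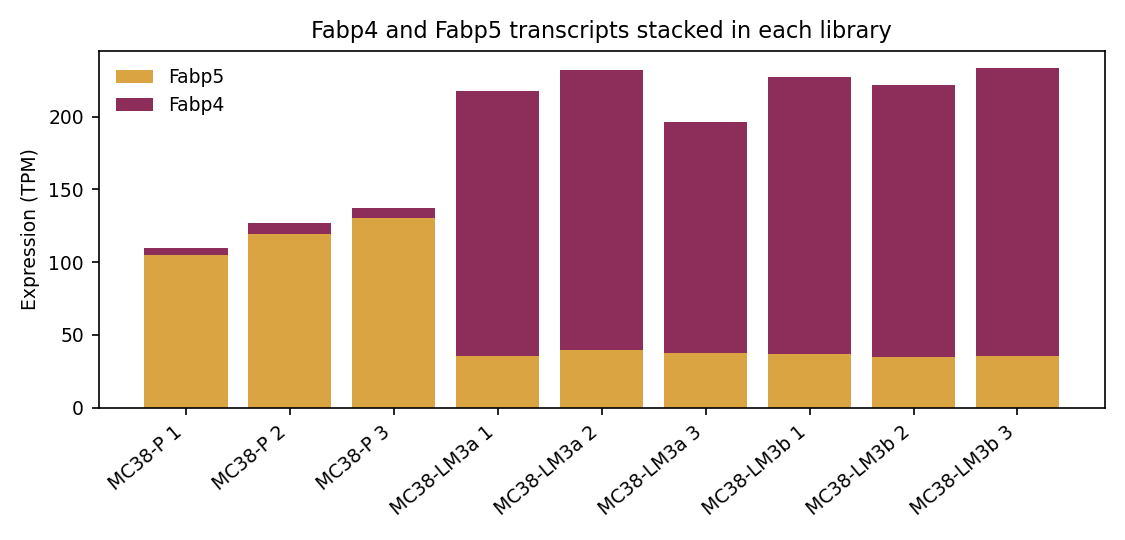
Fabp4 (upper, dark) and Fabp5 (lower, light) in TPM, stacked for each of the 9 libraries. In the 3 MC38-P libraries the bars are nearly all Fabp5 and sum to 110 to 137 TPM, and in the 6 derivative libraries more than 80.9% of each bar is Fabp4.

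The other tested members, Plin2, Pparg and Cpt1a, differed less from MC38-P than Fabp4 and Fabp5 did. Cd36, the scavenger receptor that brings long-chain fatty acids across the membrane, was listed at 0 in 8 libraries and at 0.04 TPM in MC38-LM3a replicate 1.

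Plin2, the coat protein of lipid droplets, was abundant throughout, with 302, 315 and 322 TPM in MC38-P, 369, 381 and 388 TPM in MC38-LM3a and 363, 360 and 351 TPM in MC38-LM3b. Each derivative library lay above each parental one. The log2 difference from MC38-P was 0.28 for MC38-LM3a and 0.19 for MC38-LM3b (SE 0.051). The latter is of the size of the median over all tested genes, which was 0.21 in MC38-LM3b and 0.00 in MC38-LM3a, and after centring each library on its median the Plin2 value for MC38-LM3b was -0.030.

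Pparg, the fatty acid-sensing nuclear receptor, was low in all groups, with 3.36, 3.63 and 3.37 TPM in MC38-P, 3.73, 4.23 and 4.27 TPM in MC38-LM3a and 4.58, 4.83 and 5.15 TPM in MC38-LM3b. The groups did not overlap and stood in that order, with log2 differences from MC38-P of 0.19 and 0.39 (SE 0.11). Relative to the median gene the difference was 0.18 in MC38-LM3b.

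Cpt1a, the outer mitochondrial membrane enzyme that commits fatty acids to oxidation, held 99.3, 98.8 and 73.6 TPM in MC38-P, 76.5, 72.6 and 86.7 TPM in MC38-LM3a and 94.3, 91.4 and 89.9 TPM in MC38-LM3b. The parental libraries spanned all those of MC38-LM3b and nearly all those of MC38-LM3a, with log2 differences of -0.19 and 0.03 (SE 0.11). MC38-P replicate 3 and MC38-LM3a replicate 3 set much of this spread, and without these 2 libraries the value for MC38-LM3a was -0.41.

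**Figure D2:**
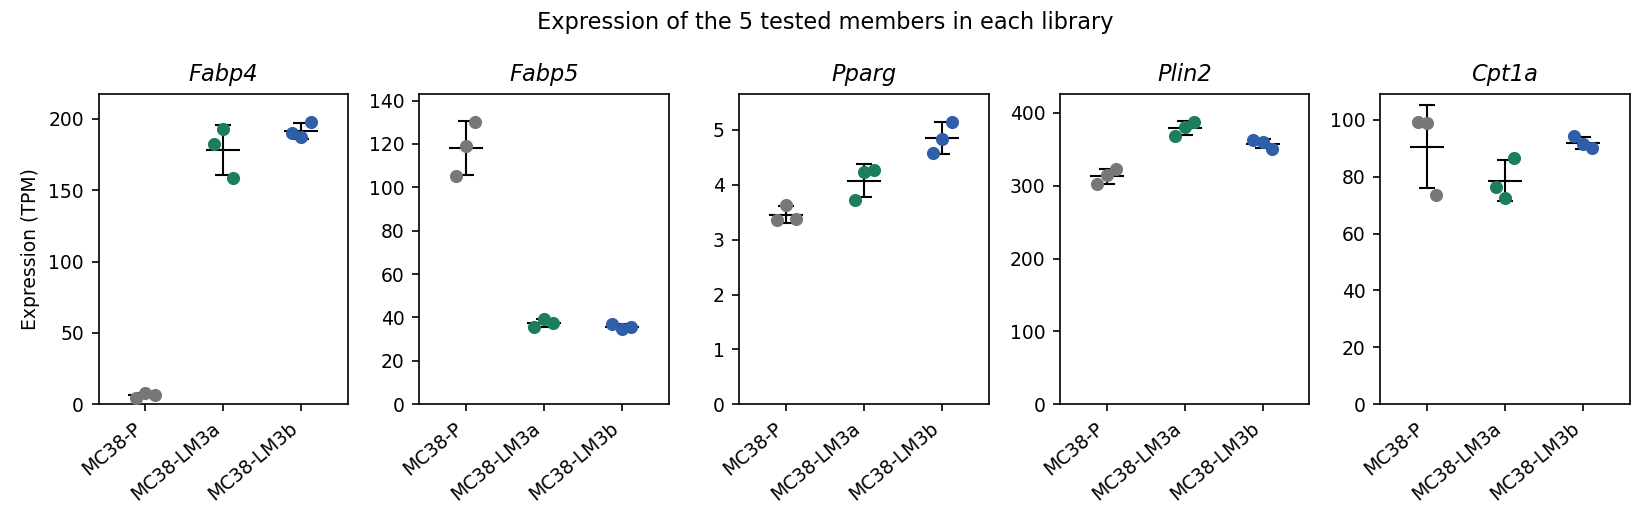
Expression in TPM of Fabp4, Fabp5, Pparg, Plin2 and Cpt1a, each on its own linear axis from 0, with 1 point per library and the mean ± SD (n = 3) in black for each group. Fabp4 separates both derivatives from MC38-P upward and Fabp5 downward, while the means of Pparg, Plin2 and Cpt1a lie within 1.41-fold of those of MC38-P.

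By the test used for the whole table (limma, adjusted p under 0.05), 14.1% of all tested genes were higher in MC38-LM3a and 13.8% lower. In MC38-LM3b 35.6% of all tested genes were higher and 11.2% lower. The surplus of higher calls in MC38-LM3b depended on scaling: 76.1% of the calls were higher as deposited, and 51.4%, 46.5% and 50.8% after quantile normalization, centring on the median and offsets for GC content and transcript length. The limits for a differentially expressed gene (DEG) were an adjusted p under 0.05 and a log2 fold change beyond 1 in either direction. They were passed by 2.89% of all tested genes in MC38-LM3a and 3.93% in MC38-LM3b. As the members were chosen from these same comparisons, their own calls are not given. The 2 comparisons share the MC38-P libraries.

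The derivatives were compared with each other to see whether separately derived lines differed in these genes. The choice of genes did not use this comparison itself. It did use the rise of Fabp4 in both derivatives, so for Fabp4 the comparison is not independent of the choice. None of the 5 members passed the test, by adjusted p over all genes or by an unadjusted p under 0.05, of which the lowest was 0.0717 (Cpt1a). Among all tested genes, 6 passed, which is 0.0532%, and 4296 had an unadjusted p under 0.05. For Fabp4, MC38-LM3b minus MC38-LM3a was 0.11 on the log2 scale, with a 95% interval from -0.20 to 0.42 (limma, adjusted p = 0.531). The interval for Fabp5 ran from -0.26 to 0.12 around -0.07 (adjusted p = 0.533), and that for Plin2 from -0.20 to 0.03 around -0.08 (adjusted p = 0.221). Pparg differed by 0.21 (interval -0.03 to 0.44, adjusted p = 0.160) and Cpt1a by 0.23 (interval -0.02 to 0.48, adjusted p = 0.153). The intervals do not show that the lines are alike, and the median of all tested genes was itself 0.21. Without MC38-LM3a replicate 3 the Cpt1a difference was 0.30 and passed (adjusted p = 0.0372), when 6351 genes passed in all.

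The remaining tested genes of the intracellular lipid-binding protein family differed less from MC38-P than Fabp4. Of 12 further family genes 3 were tested. Crabp2, which carries retinoic acid, stood at 2.10 ± 0.500 TPM in MC38-P. It was lower in MC38-LM3a (0.793 ± 0.329 TPM, log2 fold change -0.79) and in MC38-LM3b (0.897 ± 0.00577 TPM, -0.70). With only 1 derivative library at 1 TPM or more, it reached the limit for testing through MC38-P, so its p is not given. Rbp2, a cellular retinol-binding protein, stood at 18.0 TPM on average in MC38-P, at 19.8 TPM in MC38-LM3a and at 22.7 TPM in MC38-LM3b. The Rbp2 differences of 0.13 and 0.32 did not pass (limma, adjusted p = 0.542 and 0.0778). The MC38-LM3b difference of Rbp2 did pass in 6 of 20 alternatives, at 0.37 with the GC and length offsets (adjusted p = 0.0132), at 0.44 without MC38-P replicate 3 (adjusted p = 0.0261), and at 0.32 in the fit of only the 2 groups (adjusted p = 0.0457) and without MC38-LM3a replicate 3 (adjusted p = 0.0455). Its MC38-LM3a difference passed at 0.32 without replicate 3 of both MC38-P and MC38-LM3a (adjusted p = 0.0377). Fabp7, the brain FABP, was at most 1.35 TPM in any library and did not pass (-0.37 and -0.16, adjusted p = 0.325 and 0.622). Fabp2 and Rbp7 stayed under 1 TPM in every library, and Fabp1, Fabp6, Fabp9, Fabp12, Pmp2 and Crabp1 were not analysed here.

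Genes around Fabp4 and Fabp5 on chromosome 3 showed whether the stretch moved as a block. In the order of RefSeq GRCm38.p6, 7 of 16 neighbours were tested, and the values below are log2 fold changes in MC38-LM3a and then MC38-LM3b. Tpd52, a vesicle-trafficking protein gene on the Fabp5 side, rose by 0.34 and 0.47 (limma, adjusted p = 0.00224 and 0.000223), and its MC38-LM3b call was lost with the GC and length offsets (0.19, adjusted p = 0.0987). Zfand1, on the Fabp4 side, rose by 0.34 and 0.47 (adjusted p = 0.0153 and 0.00187), and its MC38-LM3a call was lost with the replicate block (adjusted p = 0.0595), in the fit of only the 2 groups (0.0681) and without replicate 1 of that line (0.0578). Impa1, an inositol monophosphatase gene and the nearest tested neighbour of Fabp4, differed by 0.09 in MC38-LM3a (adjusted p = 0.402) and rose by 0.26 in MC38-LM3b (adjusted p = 0.0148), a call that was lost in 5 of 20 alternatives, among them the offsets (0.01, adjusted p = 0.925), quantile normalization (0.11, adjusted p = 0.0868) and leaving out MC38-LM3b replicate 3 (0.24, adjusted p = 0.0603). Mrps28 (0.09 and -0.04), Zbtb10 (-0.02 and 0.42), Zfp704 (-0.50 and 0.03) and Snx16 (-0.11 and 0.02) did not pass in either derivative, with adjusted p from 0.0745 to 0.945. Zfp704 passed the test in MC38-LM3a in 7 of 20 alternatives, among them quantile normalization (adjusted p = 0.00467), centring on the median (0.00725) and leaving out replicate 3 of MC38-P (0.0206) or of MC38-LM3a (0.00437). With the offsets, it passed at -0.40 in MC38-LM3a (adjusted p = 0.000625) and at -0.32 in MC38-LM3b (adjusted p = 0.00218), and Snx16 at -0.25 in MC38-LM3b (adjusted p = 0.0361). Zbtb10 passed as higher in MC38-LM3b in the fit of only the 2 groups (adjusted p = 0.0428), without MC38-P replicate 1 (0.58, adjusted p = 0.0322) and without MC38-LM3a replicate 3 (adjusted p = 0.0279). In MC38-LM3a, further calls were gained when replicate 3 of both MC38-P and MC38-LM3a was left out. There Mrps28 passed as higher (0.27, adjusted p = 0.0104). Zbtb10 (-0.38, adjusted p = 0.00843) and Zfp704 (-0.88, adjusted p = 3.28e-05) passed as lower. The median of the 7 was 0.09 and 0.26, against 0.00 and 0.21 over all tested genes. Between Fabp4, at more than 4 log2 units upward, and Fabp5, at more than 1 downward, no tested neighbour reached a log2 difference of 1 on the log2(TPM + 1) scale. Among neighbours too low to be tested, and named after their values were seen, Hey1 stood at 1.09 TPM on average in MC38-P and at 0.443 and 0.540 TPM in the respective derivatives, and Chmp4c at 0.227 TPM and at 0.517 and 0.627 TPM. Neither derivative overlapped MC38-P in these 2 genes, Hey1 being lower and Chmp4c higher, with no test.

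**Figure D3:**
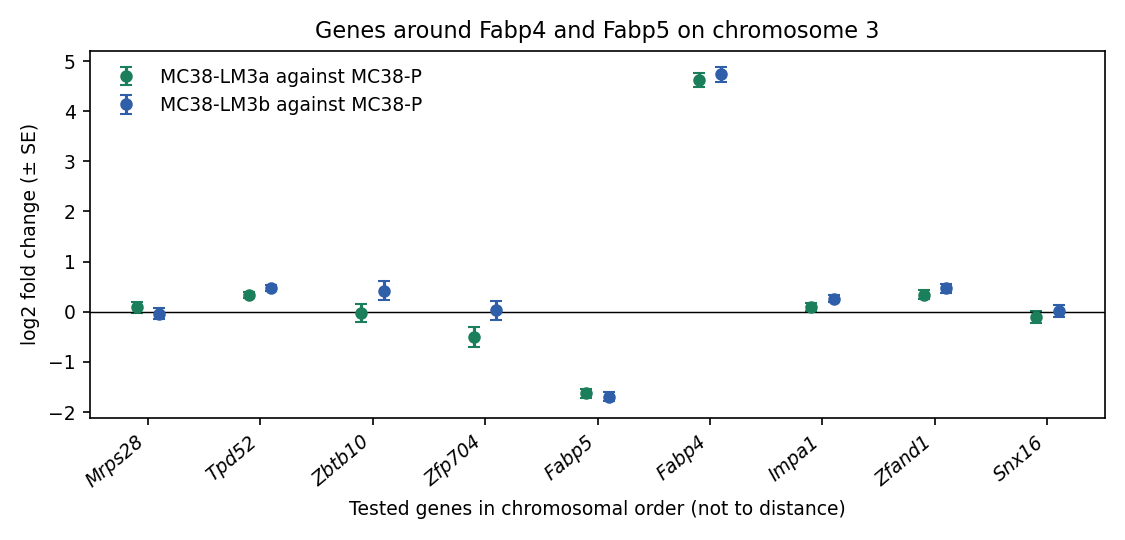
Log2 fold change ± SE against MC38-P on the log2(TPM + 1) scale for the tested genes around Fabp4 on chromosome 3, in gene order and not to distance, in MC38-LM3a and MC38-LM3b. Fabp4 (4.62 and 4.73) and Fabp5 (-1.63 and -1.69) stand apart, and the neighbours lie between -0.50 and 0.47.

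The other genes of fatty acid handling were described by lists written by hand, from which the members themselves are left out. Their counts can be read against the shares of all tested genes given above, 14.1% higher and 13.8% lower in MC38-LM3a and 35.6% and 11.2% in MC38-LM3b. For uptake and activation (fatty acid transport proteins, acyl-CoA synthetases, lipases and lipoprotein receptors), 22 of 29 genes were tested. In MC38-LM3a 2 rose and 6 fell, and in MC38-LM3b 9 rose and 3 fell, with medians of -0.01 and 0.19. With the GC and length offsets these counts were 5 and 8 in MC38-LM3a and 7 and 8 in MC38-LM3b. The offsets also moved the shares over all tested genes, to 26.6% higher and 25.4% lower in MC38-LM3a and to 29.5% and 28.6% in MC38-LM3b, against which all counts with offsets can be read. Lrp1, an endocytic receptor for lipoproteins, held 57.8, 56.2 and 36.8 TPM in MC38-P, 64.5, 64.7 and 113 TPM in MC38-LM3a and 125, 122 and 121 TPM in MC38-LM3b. MC38-LM3a replicate 3 stood with the MC38-LM3b libraries and away from its own group. Lrp1 rose by 1.30 in MC38-LM3b (limma, adjusted p = 0.000893) and by 0.65 in MC38-LM3a (adjusted p = 0.0444), and the MC38-LM3a value was 0.38 without replicate 3 of that line (adjusted p = 0.0589) and 0.44 without MC38-P replicate 3 (adjusted p = 0.118). This call was lost in 9 of 20 alternatives, at an unchanged 0.65 with the replicate block (adjusted p = 0.108), in the fit of only the 2 groups (0.101) and with no filter on low values (0.0892). Mfsd2a, a transporter of lysophosphatidylcholine-bound fatty acids, held 15.7, 14.0 and 13.1 TPM in MC38-P, 5.10, 4.35 and 7.37 TPM in MC38-LM3a and 4.81, 5.33 and 6.23 TPM in MC38-LM3b. It was downregulated with no overlap of either derivative with MC38-P, with log2 fold changes of -1.23 (adjusted p = 0.000370) and -1.24 (adjusted p = 0.000245).

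For storage and lipolysis (triglyceride synthesis, lipid droplet proteins and lipases), 19 of 31 genes were tested. In MC38-LM3a 5 rose and 4 fell, and in MC38-LM3b 6 rose and 3 fell, with medians of -0.05 and 0.16. With the offsets 5 rose and 5 fell in MC38-LM3a, and 6 rose and 7 fell in MC38-LM3b. Lpin3, a phosphatidate phosphatase of triglyceride synthesis, held 0.40, 0.65 and 0.54 TPM in MC38-P, 2.73, 2.81 and 3.40 TPM in MC38-LM3a and 4.52, 5.56 and 5.55 TPM in MC38-LM3b. Its levels were low, but no library of one group overlapped another. It was higher by 1.38 and 2.02 on the log2 scale in the respective derivatives. Since it was under 1 TPM in each MC38-P library, it reached the limit for testing only through the derivatives. The limit thus favoured a difference, so its p is not given, though it is among the rises counted above. Named after their values were seen, Dgat1 and Dgat2, which make the last step of triglyceride synthesis, both fell in each derivative. Dgat1 fell by 0.94 and 0.60 on the log2 scale (limma, adjusted p = 0.000390 and 0.00359) and Dgat2 fell by 0.78 and 0.68 (adjusted p = 0.00289 and 0.00409). These falls do not stand for the list, in which most other genes that passed in both derivatives rose. Plin3 (0.45 and 0.51), Bscl2 (0.59 and 0.55), Lipa (0.48 and 0.78) and Agpat3 (0.25 and 0.45) were higher. Lipe (-0.79 and -0.42) was lower, and adjusted p for these ran from 0.000124 to 0.0390 (limma).

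For beta-oxidation, 32 of 39 genes were tested. In MC38-LM3a 10 rose and 2 fell, and in MC38-LM3b 15 rose and 3 fell, with medians of 0.14 and 0.18 and with no gene past a log2 fold change of 1 on the log2(TPM + 1) scale. In TPM, 3 of them differed more than 2-fold, namely Cpt1b in both derivatives, and Acox3 (2.06-fold) and Cpt1c (2.05-fold) as rises in MC38-LM3b (limma, adjusted p = 0.00259 and 0.00224), the last pair named after their values were seen. With the offsets 15 were higher and 6 lower in MC38-LM3a, and the surplus was smaller in MC38-LM3b alone, with 11 and 8. Quantile normalization gave 6 and 5 in MC38-LM3b, where it called 25.9% of all tested genes higher and 24.5% lower. Decr1, the dienoyl-CoA reductase needed for unsaturated fatty acids, rose from 14.6 ± 0.947 TPM to 25.1 ± 1.01 TPM in MC38-LM3a and to 23.9 ± 0.0624 TPM in MC38-LM3b (log2 fold change 0.75 and 0.68, limma adjusted p = 0.000130 and 0.000164). Mlycd, malonyl-CoA decarboxylase, which removes the inhibitor of Cpt1, rose from 4.80 ± 0.666 TPM to 8.10 ± 0.713 and 9.39 ± 1.06 TPM (0.65 and 0.84, adjusted p = 0.00342 and 0.000539). Cpt1b, the muscle isoform of Cpt1a, stood at a low 1.78 ± 0.358 TPM in MC38-P and at 0.420 ± 0.269 and 0.463 ± 0.127 TPM in the derivatives (-0.98 and -0.92). The means were 4.24-fold and 3.84-fold lower, and smaller pseudocounts gave log2 fold changes of as much as -2.21 and -1.94. Cpt1b reached the limit for testing only through MC38-P, as all derivative libraries were under 1 TPM. Its p is therefore not given, though it is among the falls counted above. Eci2, an enoyl-CoA isomerase, fell from 86.2 ± 6.04 TPM to 69.7 ± 1.21 and 70.0 ± 2.12 TPM (-0.30 and -0.30, adjusted p = 0.00847 and 0.00609).

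In the list of nuclear receptors, coregulators and adipogenic factors that act with Pparg, which also held Runx1, 20 of 29 genes were tested. In MC38-LM3a 1 rose and 3 fell, and in MC38-LM3b 4 rose and 0 fell (0 also at an unadjusted p under 0.05), with medians of -0.18 and 0.12. With the offsets these counts were 3 and 7 in MC38-LM3a and 5 and 7 in MC38-LM3b. Quantile normalization gave 1 and 7 in MC38-LM3a (21.5% and 20.5% over all tested genes) and 3 and 3 in MC38-LM3b (25.9% and 24.5%). Without MC38-LM3a replicate 3 the counts were 1 and 9 in MC38-LM3a and 7 and 0 in MC38-LM3b. Over all tested genes 14.2% were then higher and 23.2% lower in MC38-LM3a, and 45.1% and 13.8% in MC38-LM3b. Nr1h2, the liver X receptor beta gene, rose from 39.7 ± 1.03 TPM to 53.5 ± 2.88 TPM in MC38-LM3a (0.42, limma adjusted p = 0.00202) and 60.8 ± 3.93 TPM in MC38-LM3b (0.60, adjusted p = 0.000168). Runx1, named after its values were seen, is also among the rises counted in MC38-LM3b (0.66, limma adjusted p = 0.0162). It is not among those of MC38-LM3a, where the 1 rise counted was Nr1h2.

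Of 25 further genes known as PPARG targets, 12 were tested. In MC38-LM3a 3 rose and 2 fell, and in MC38-LM3b 6 rose and 2 fell, with medians of 0.11 and 0.29 and with no DEG. Cpt1b, counted among these falls but admitted only through MC38-P, was just short of the DEG limit here and past it at smaller pseudocounts. After quantile normalization 5 rose and 2 fell in MC38-LM3a, where 21.5% of all tested genes were then higher and 20.5% lower, and 4 rose and 2 fell in MC38-LM3b. Acaa1a, a peroxisomal thiolase gene, rose by 0.33 and 0.29 (limma, adjusted p = 0.00481 and 0.00682), and Ech1 by 0.31 and 0.29 (adjusted p = 0.00898 and 0.00861), and the MC38-LM3b calls of both were lost after centring on the median (0.07 and 0.06, adjusted p = 0.610 and 0.653). Angptl4, an inhibitor of lipoprotein lipase and a much used readout of PPAR activity, fell by 0.26 and 0.25 on the log2 scale (adjusted p = 0.0103 and 0.00909), from 129 ± 5.68 TPM to 108 ± 5.29 and 109 ± 0.355 TPM, and its MC38-LM3a call was lost without MC38-P replicate 2 (-0.23, adjusted p = 0.0551).

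Leaving out these same 2 libraries (replicate 3 of MC38-P and of MC38-LM3a), an alternative added after the data were seen, changed several of these counts and also the shares over all tested genes, which were then 18.4% higher and 45.2% lower in MC38-LM3a and 46.3% and 19.0% in MC38-LM3b. In MC38-LM3a, uptake and activation then had 4 genes higher and 13 lower, storage and lipolysis 5 and 9, beta-oxidation 13 and 5, the Pparg regulators 1 and 17 and the PPARG targets 3 and 3. In MC38-LM3b the same counts were 10 and 7, 8 and 4, 16 and 3, 9 and 3, and 7 and 1. Between the derivatives 0 of the 107 distinct tested genes of the 7 lists passed (limma), with 38 at an unadjusted p under 0.05. That 0 rested on MC38-LM3a replicate 3, since without it 13 of 22 uptake genes, 10 of 19 storage genes and 15 of 20 Pparg regulators were higher in MC38-LM3b, while beta-oxidation had 7 higher and 4 lower. Over all tested genes 52.2% were then higher and 4.24% lower.

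**Figure D4:**
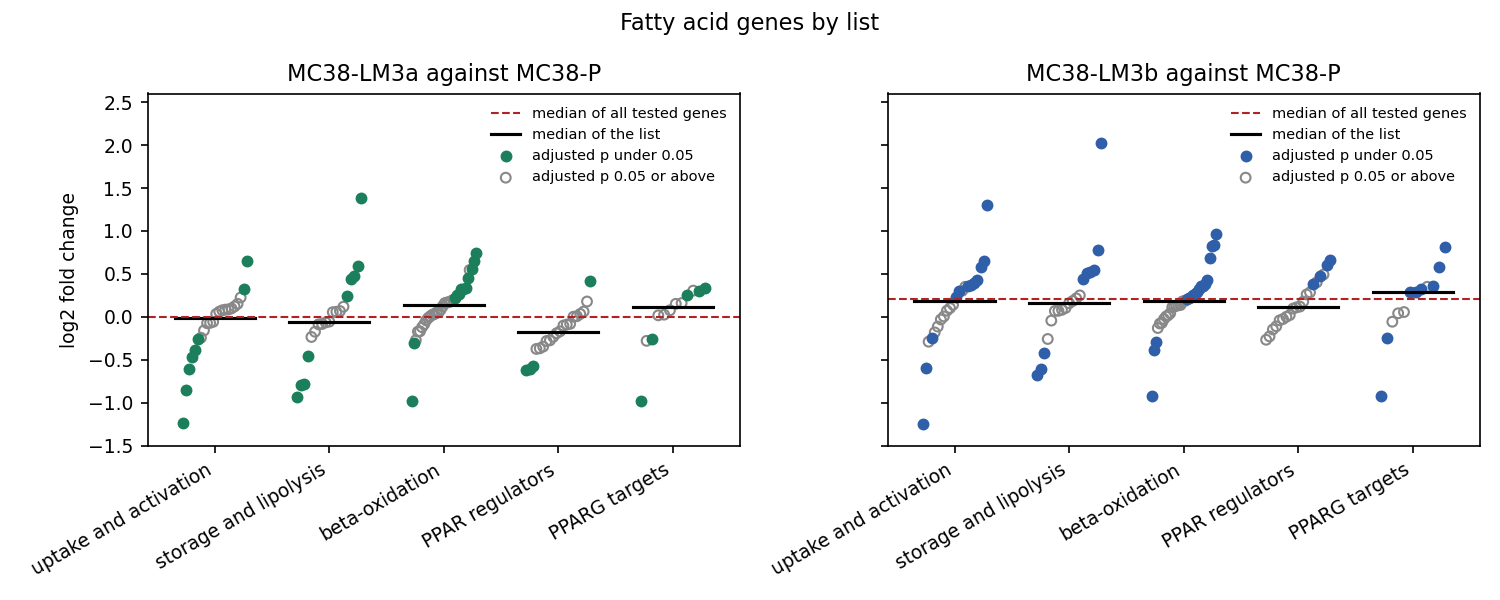
Log2 fold change against MC38-P of each tested gene in 5 lists of fatty acid genes, members left out, in MC38-LM3a and MC38-LM3b. Filled points passed an adjusted p under 0.05 and open points did not, the black bars are list medians and the dashed line is the median of all tested genes (0.00 and 0.21), from which no list median departs by more than 0.18.

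The genes whose pattern over the 9 libraries was most like that of Fabp4 came from outside fatty acid handling. By Pearson r on log2(TPM + 1) among tested genes these were Fes (0.999), a tyrosine kinase known from myeloid cells, Grap (0.998), a GRB2-related adaptor, Lpxn (0.997), a focal adhesion protein of blood cells, Gimap9 (0.996), a GTPase of lymphocytes, and Itm2b (0.995). The 9 points share 3 cell lines, so r mostly records the step between MC38-P and the derivatives, and no p is given. Fes went from 0.28 to 0.49 TPM in MC38-P to 9.48 to 11.4 TPM in the derivatives, and Gimap9 from 0 to 0.18 TPM to 5.59 to 7.91 TPM. Both were under 1 TPM in each MC38-P library and reached the limit for testing only through the derivatives. Grap went from 2.07 to 2.96 TPM to 26.7 to 30.9 TPM, and Lpxn from 2.47 to 2.73 TPM to 15.8 to 17.8 TPM. Itm2b was already at 263 to 274 TPM in MC38-P and reached 454 to 495 TPM.

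Since Fabp4 is also a marker of adipocytes, macrophages and endothelium, the defining genes of those cells were read in the same libraries. Of 6 listed adipocyte markers only Lipe reached 1 TPM in any library, Adipoq was at most 0.09 TPM, and the summed level was 3.80 to 5.63 TPM in MC38-P, 2.10 to 2.68 TPM for MC38-LM3a and 2.77 to 4.25 TPM for MC38-LM3b. Of 7 macrophage markers only Cd68 reached 1 TPM, with Ptprc at most 0.09 and Csf1r at most 0.14 TPM, and Lyz2 at 0 in 7 of 9 libraries. The macrophage sum, nearly all Cd68, was 28.4 to 30.2 TPM in MC38-P, 34.7 to 41.5 TPM for MC38-LM3a and 40.4 to 46.0 TPM for MC38-LM3b, and the part of this shift in the Fabp4 values was not tested. Cd68 itself rose by 0.33 and 0.57 on the log2 scale (limma, adjusted p = 0.022 and 0.000795). Of 9 endothelial markers Cdh5 and Egfl7 reached 1 TPM, Pecam1 was at most 0.25 TPM, and the sums overlapped between all groups (15.3 to 20.6 TPM). None of 7 hepatocyte markers exceeded 0.31 TPM. Of 8 stellate and fibroblast markers 4 reached 1 TPM, and their sum, nearly all Col3a1, was lower in the derivatives (54.7 to 73.4 TPM) than in MC38-P (136 to 174 TPM). Col3a1 fell by 1.34 and 1.19 on the log2 scale (limma, adjusted p = 2.08e-05 and 3.64e-05) and Col1a1 by 1.55 and 1.48 (adjusted p = 9.81e-05 and 9.91e-05). The other 2 did not move with them. Pdgfrb went from 1.54 to 2.13 and 3.66 TPM on average and rose in MC38-LM3b (log2 fold change 0.88, limma adjusted p = 0.000695). Pdgfra stood at 1.01, 0.703 and 1.12 TPM (adjusted p = 0.194 and 0.556). In such bulk samples fewer cells of a type and less RNA per cell cannot be told apart. The labelled epithelial type was carried by Krt8, Krt18 and Krt19, with a sum over 10 listed markers of 2003 to 2318 TPM in MC38-P, 1592 to 1812 TPM for MC38-LM3a and 1584 to 1630 TPM for MC38-LM3b, while the epithelial cadherin gene Cdh1 was at most 0.08 and Vil1 at most 0.13 TPM. Neither derivative overlapped MC38-P in this sum, and Krt8 (-0.48 and -0.56), Krt18 (-0.24 and -0.32) and Epcam (-1.14 and -1.07) fell in both on the log2 scale, with limma adjusted p from 9.61e-05 to 0.0256. Cdx2 stood at 2.27 TPM on average in MC38-P and at 0.630 and 0.410 TPM in the respective derivatives, and reached the limit for testing only through MC38-P, so its p is not given. Krt19 went the other way in MC38-LM3a, where it rose by 0.39 (adjusted p = 0.00358), and differed by -0.08 in MC38-LM3b (adjusted p = 0.413). Krt20, at 0.693 TPM in MC38-P and at 1.48 and 1.15 TPM in the derivatives, reached that limit only through the derivatives. The part of the stellate, fibroblast and epithelial shifts in the results for the members was not tested.

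Between 10875 and 11218 genes reached 1 TPM per library, and libraries correlated across genes with r from 0.991 to 0.997 within a group. Within groups, libraries differed along transcript length: the deviation from the group mean had a Spearman correlation with length of -0.65 in MC38-P replicate 3 against 0.53 and 0.43 in replicates 1 and 2, of 0.67 in MC38-LM3a replicate 3 against -0.57 and -0.53 in its replicates 1 and 2, and of about 0 (-0.01 to 0.02) in MC38-LM3b, over 11159 genes that are not independent. Fabp4 and Fabp5 have short transcripts (896 and 987 bases, at percentiles 4.52 and 5.57 of the tested genes) and Cpt1a a long one (4317 bases, percentile 70.2). Leaving out those 2 libraries gave Fabp4 4.74 and 4.78, and Fabp5 -1.55 and -1.62.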

How the data were processed

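RNA-seq was carried out on 9 samples of cultured cells, 3 of the parental line MC38-P and 3 of each derivative, with groups taken from the sample titles. Per the labels, poly(A) RNA was enriched and fragmented, and the submitters' processing notes name HISAT and GRCm39. The quantification tool and annotation are not given in the sources used here. The authors deposited TPM per gene, rounded to 2 decimals, so depth is unknown, no counting interval can be given, and a gene at 0 is only listed at 0.

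Values were converted to log2(TPM + 1). Genes that reached 1 TPM in 3 or more libraries were fitted in 1 limma 3.58.1 model (R 4.3.3) over all 9 libraries, with trended empirical Bayes variance and Benjamini-Hochberg adjustment over all tested genes. The study calls the samples of a group biological replicates, but whether they were grown as separate cultures is not given in the sources used here, so p-values measure only the spread between these samples, which may be technical. The procedure was tested on simulated data.

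The members, the lists and the rule for naming genes were chosen with earlier results of these data known. Named were all members, every tested family gene and neighbour, and of each other list its DEGs or, failing any, up to 2 rises and 2 falls that passed in both derivatives. The 5 genes most correlated with Fabp4 were also named, and any other gene was chosen after its values were seen. One gene of the family list is not reported here.

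Transcript sequences, lengths and GC content came from GENCODE M21 (GRCm38.p6), and gene order from RefSeq GRCm38.p6. As the authors' build differs, no coordinates are given. Fabp4 and Fabp5 had no entry in the promoter table used. Offsets were loess fits (span 0.3) on GC and length for 11159 genes (98.9%). Alternatives were other pseudocounts, filters, scalings and offsets, a replicate block, 2-group fits and each replicate left out.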

Additional observations from a re-analysis of the deposited data

How the results depend on the processing

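Depth is unknown, and the number of samples limits precision. Correlations of same-numbered deviations ran from -0.66 to 0.07, which does not settle whether replicate numbers pair the samples. The lowest was between replicate 3 of MC38-P and of MC38-LM3a, whose deviations had opposite trends with transcript length. In each alternative Fabp4 stayed higher and Fabp5 lower in both derivatives. Of 63 results for named list genes, 39 kept their side of the threshold in every alternative that tested the gene. The other 24 lost or gained a call. Fabp7, Cpt1b, Crabp2 and Lpin3 were not tested in some alternatives. Causes were not tested.

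In MC38-LM3a, 3160 genes passed the adjusted p, against 5802 with GC and length offsets, 2101 in the 2-group fit, 2200 with the replicate block, 5424 with the replicate block and offsets, 7111 without replicate 3 of both MC38-P and MC38-LM3a (added after seeing the data), and 2083 (without MC38-P replicate 2) to 4211 (without MC38-LM3a replicate 3) with 1 library left out. Its 326 DEGs became 550 and 576 at pseudocounts of 0.1 and 0.01, and 208 when 1 TPM was required in every library. Fabp4 was 4.83 at a pseudocount of 0.01, Fabp5 was -1.76 with the offsets (with or without the block), and Cpt1a was -0.41 without both of these libraries.

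In MC38-LM3b, 444 DEGs became 705 and 750 at pseudocounts of 0.1 and 0.01. A pseudocount of 0.01 gave Fabp4 4.94 and Pparg 0.49, and 0.1 gave Pparg 0.48. Quantile normalization gave Fabp5 -1.88, Pparg 0.16 and Plin2 0.13. Centring on the median gave Fabp4 4.51, Fabp5 -1.92, Pparg 0.17, Plin2 -0.030 (reversed) and Cpt1a -0.19. The offsets, with or without the replicate block, gave Fabp4 4.45, Fabp5 -1.82, Pparg 0.24, Plin2 0.092 and Cpt1a -0.18, and turned Zfp704 to -0.32 and Snx16 to -0.25. These 3 scalings moved the median gene from 0.21 to 0.02, -0.01 and 0.01.

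Between the derivatives, 6 genes passed, against 2 and 1 at pseudocounts of 0.1 and 0.01, 0 with 1 TPM in every library, 10 with quantile normalization, 12 with median centring, 22 with offsets, 3 in the 2-group fit, 2 with the replicate block and 8025 without both of these libraries. With 1 library left out the count ran from 0 (MC38-LM3b replicate 1 or 3) to 6351 (MC38-LM3a replicate 3). Without both of these libraries Pparg was 0.23 (limma, adjusted p = 0.0435) and Cpt1a 0.30 (adjusted p = 9.90e-05), and Cpt1a ran from 0.17 to 0.30 with 1 library left out. Count-based alternatives were not possible with TPM.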
